A study of Mus musculus with 8 samples.

Results

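The nuclear genes of respiratory complex I and its assembly factors were compared between EpCAM+ and EpCAM- stem and progenitor cells of mice that had lost Zeb1. Members were the protein-coding rows of the count table whose symbol begins with Nduf, which gave 46 of the 54532 rows. Of these, 38 carry the names of subunits and 8 are assembly factors, whose symbols begin with Ndufaf. In all, 45 members had enough counts to be tested among 13560 genes, and Ndufa4l2 did not.

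RNA was measured in sorted Lin- C-KIT+ SCA-1+ (LSK) bone marrow cells, the gate that holds hematopoietic stem cells and their earliest progeny. Every library came from C57BL/6 mice, 8 to 12 weeks old, that carried floxed Zeb1 alleles and the Mx1-Cre transgene, and cells were taken 14 days after pIpC dosing ended. pIpC (polyinosinic-polycytidylic acid) raises interferon, which drives the Mx1 promoter and so the Cre recombinase that deletes Zeb1. The groups were 4 EpCAM+ Zeb1-/- libraries and 4 EpCAM- Zeb1-/- libraries. Both are labeled as deleted, so the comparison is between surface fractions and not between labeled genotypes. How complete the deletion was in each fraction was not checked here. The cells of a fraction were read as a pool, so that fewer cells of a type and less RNA per cell cannot be told apart. The labels do not say how the replicates of a fraction differ beyond 4 mice per genotype, and p-values measure only the spread between these samples.

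Complex I (NADH:ubiquinone oxidoreductase) is the entry point of the mitochondrial respiratory chain. Its peripheral arm lies in the matrix, where the N module takes electrons from NADH and a chain of iron-sulfur clusters passes them to ubiquinone in the Q module, and its membrane arm pumps protons. The core subunits are shared with bacteria and carry out catalysis, the accessory subunits surround and stabilize them, and assembly factors build the complex but leave it before it works. Hematopoietic stem cells are known for a low use of respiration compared with the progenitors they give rise to.

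Counts per library summed to between 15225714 and 17073546 in EpCAM+ and between 14114491 and 15929923 in EpCAM-. Epcam itself had 2818 to 3580 counts in the EpCAM+ libraries and 17 to 144 in the EpCAM- libraries, and Zeb1 had 261 to 373 counts against 129 to 214. A gene-level Zeb1 count includes exons outside the floxed part, so it does not check the deletion. Counts are given below as CPM, the count scaled to a common library size after TMM normalization, which sets the bulk of genes level between libraries.

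The fractions also differed in markers of other cells and of division. For comparison, 21.8% of all tested genes were higher in EpCAM+ and 20.8% lower by edgeR. Of 12 tested LSK markers, 9 were higher in EpCAM+, with a summed level of 3063 to 3345 CPM against 1679 to 2475 CPM, and the defining Kit, Ly6a and Cd34 were present in every library. Of 18 tested proliferation genes, 14 were lower in EpCAM+ (9 with library totals) and 0 higher by edgeR (by unadjusted p under 0.05, 0, and by DESeq2, 0), and their sum was 4960 to 5557 CPM against 6217 to 7216 CPM. Dendritic cell markers were higher for 8 of 9 genes and spanned 1226 to 15348 CPM in EpCAM+ against 249 to 500 CPM, with Siglech at 33 counts or fewer in each library. B and plasma cell markers were higher for 4 of 7 genes, at 298 to 3724 CPM against 51 to 88 CPM, and Pax5 and Ebf1 had 3 counts or fewer in every library. Jchain stood at 53916 counts in EpCAM+ replicate 1 and at 3069 to 7671 counts in the other EpCAM+ libraries. Neutrophil and monocyte markers were lower in EpCAM+ for 5 of 10 genes and higher for 1, at 1601 to 2453 CPM against 12127 to 18990 CPM. Erythroid markers were lower for 6 of 9 and higher for 1, at 2311 to 3844 CPM against 4293 to 10975 CPM. Mast cell and basophil markers were lower for 5 of 7, at 72.9 to 98.2 CPM against 287 to 572 CPM. Megakaryocyte markers were higher for 1 of 6 (2 with the replicate number as a block), at 136 to 379 CPM against 89.7 to 297 CPM, with Gp1bb at 1 count or fewer, and T and NK cell markers were higher for 1 of 2, at 634 to 797 CPM against 685 to 886 CPM, with Cd3e at 1 count or fewer. Apart from the megakaryocyte and the T and NK cell lists, whose summed levels overlapped between the fractions, these lists moved with the same contrast as the complex I genes below, and their part in those results was not tested.

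Promoter sequence was available for 40 members, in the RefSeq set for GRCm38.p6 (250 bases before and 50 after the start of the gene). Promoters of Ndufs1, Ndufa2, Ndufb9, Ndufaf6 and Ndufa4l2 were among those not used here. The windows were searched on both strands for short motifs tied to factors of respiratory genes, since the members tended to move together. TGCGCA (NRF-1) was in 11 of 40 member promoters, or 27.5%, against 14.7% of the 9740 promoters matched to tested genes and 8.06% of all 27025 promoters. ATGGCG (YY1, and also the start of many coding sequences) was in 13 of 40, or 32.5%, against 16.3% of tested genes and 9.24% of all. CCGGAAG (GABP and other ETS factors) was in 6 of 40, or 15%, against 19.2% of tested genes and 9.12% of all. GGGCGG (SP1) was in 52.5%, 64.4% and 35.9%, CCAAT (NF-Y) in 35.0%, 39.2% and 37.9%, and TATAAA in 10%, 6.67% and 14.2%. Among 14 promoters of members lower in EpCAM+ and 26 of members that were not, NRF-1 matches were in 5 and 6, YY1 in 6 and 7, ETS in 2 and 4, SP1 in 8 and 13, NF-Y in 2 and 12 and TATA in 1 and 3, with no test made. A match is a description of letters, not of a bound site. The 250 upstream bases are shown for the 3 lower members whose window holds no annotated exon, Ndufaf4, Ndufaf1 and Ndufa9, and for Ndufa3, whose level barely differed between the fractions. Capitals mark matches to any of the 6 motifs, and overlapping matches run together.
Ndufaf4, chr4:24897833-24898082, plus strand: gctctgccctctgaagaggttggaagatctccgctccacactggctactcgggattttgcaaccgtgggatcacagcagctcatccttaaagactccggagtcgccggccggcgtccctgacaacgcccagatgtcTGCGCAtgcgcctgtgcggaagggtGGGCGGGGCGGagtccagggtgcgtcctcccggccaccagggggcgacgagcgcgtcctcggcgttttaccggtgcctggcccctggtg
Ndufaf1, chr2:119662835-119663084, minus strand: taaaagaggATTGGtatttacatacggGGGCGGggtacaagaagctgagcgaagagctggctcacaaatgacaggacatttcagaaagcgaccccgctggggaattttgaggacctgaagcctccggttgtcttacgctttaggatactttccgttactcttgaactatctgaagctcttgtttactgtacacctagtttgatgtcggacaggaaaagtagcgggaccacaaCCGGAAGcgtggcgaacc
Ndufa9, chr6:126849145-126849394, minus strand: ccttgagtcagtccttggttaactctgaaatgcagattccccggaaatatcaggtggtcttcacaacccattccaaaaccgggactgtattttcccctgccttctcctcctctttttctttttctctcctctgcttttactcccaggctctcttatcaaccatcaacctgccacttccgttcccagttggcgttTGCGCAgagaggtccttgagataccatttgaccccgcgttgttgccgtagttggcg
Ndufa3, chr7:3617123-3617372, plus strand: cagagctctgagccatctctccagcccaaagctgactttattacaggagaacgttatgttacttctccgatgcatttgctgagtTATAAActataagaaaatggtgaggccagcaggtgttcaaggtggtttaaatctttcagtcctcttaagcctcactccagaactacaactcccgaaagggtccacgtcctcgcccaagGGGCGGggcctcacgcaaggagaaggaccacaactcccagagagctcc
The Ndufaf4 window holds an NRF-1 match and a pair of overlapping SP1 matches, that of Ndufaf1 holds matches for NF-Y, SP1 and ETS factors, that of Ndufa9 an NRF-1 match, and that of Ndufa3 a TATA and an SP1 match.

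The complex I genes that passed the test were lower in EpCAM+ cells, by modest amounts. With edgeR's quasi-likelihood test and Benjamini-Hochberg adjustment over all tested genes, 16 of 45 were lower and 0 higher (by unadjusted p under 0.05, 22 and 0). Across all tested genes 20.8% were lower and 21.8% higher. The log2 fold change of EpCAM+ over EpCAM- was negative for 41 of 45 members, against 48.0% of all tested genes, with a median of -0.22 against 0.02. The decreases ran to 0.60 on the log2 scale. DESeq2 also called 0 higher, and 20 lower (background 22.6%). With the replicate number as a block, 28 of 45 were lower and 0 higher (background 24.7% lower). Scaling moved the count, since upper-quartile scaling left 9 lower (background 15.4%) and plain library totals 11 (background 15.2%), and the counts over all genes shifted with it, from 2961 genes higher and 2818 lower to 3642 and 2083 with upper quartiles. Ndufs5, Ndufa9, Ndufa5, Ndufb10 and Ndufaf3 lost their calls under both scalings, and Ndufab1 and Ndufs3 under upper quartiles alone.

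**Figure D1:**
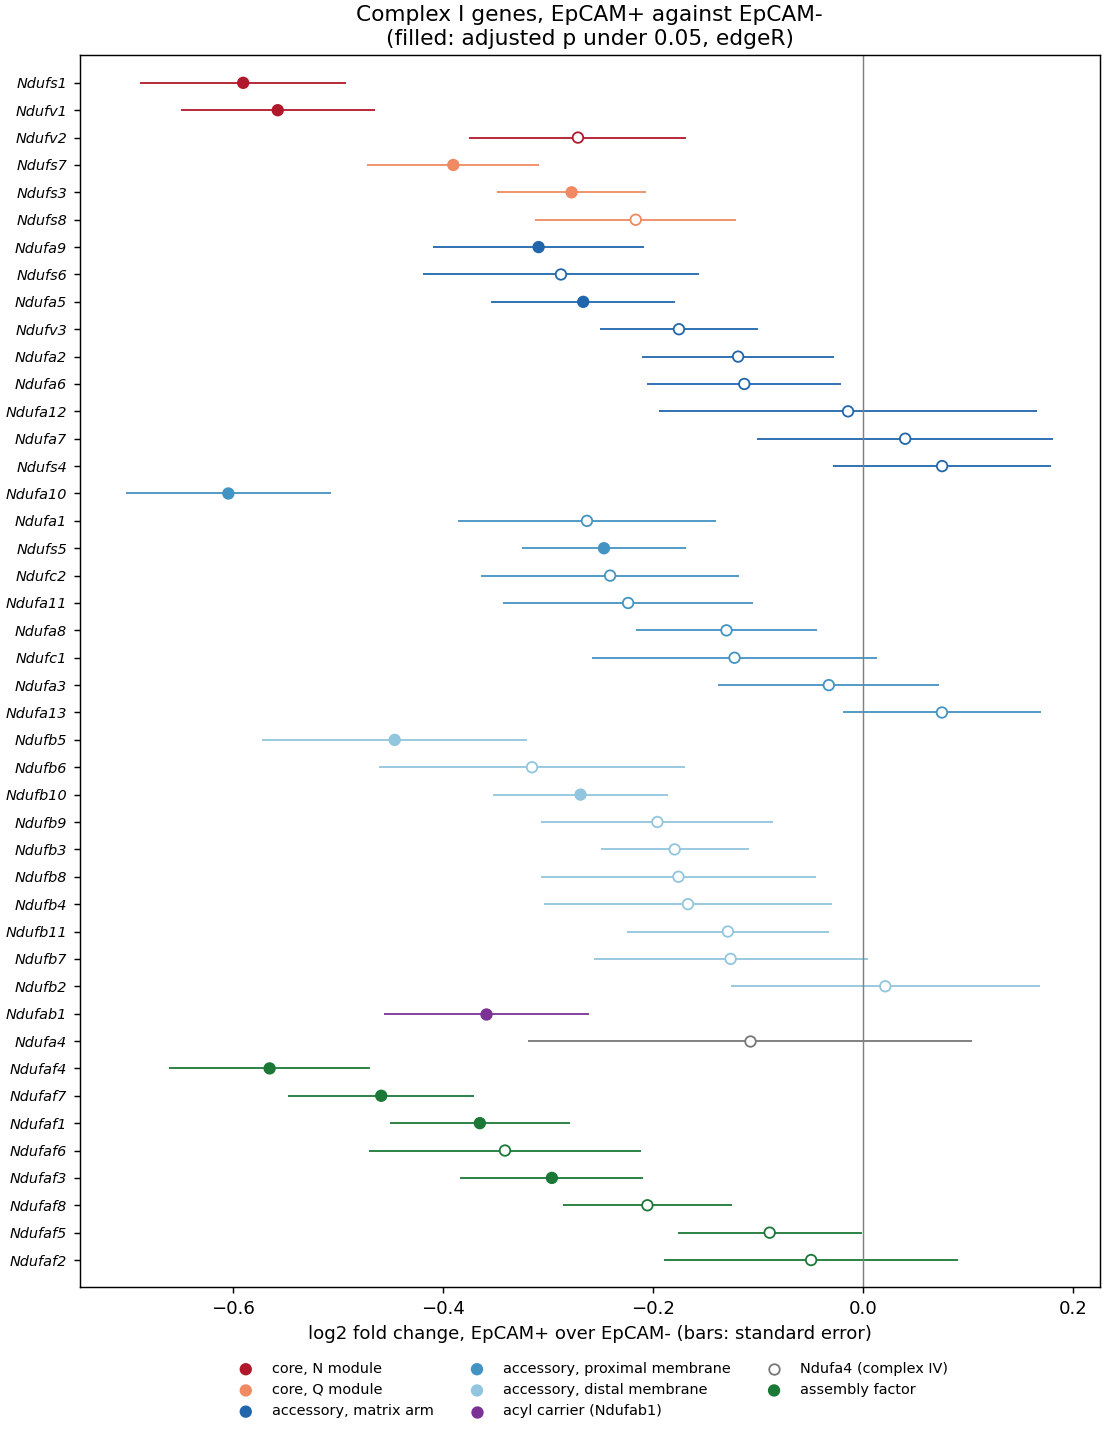
Log2 fold change of EpCAM+ over EpCAM- (horizontal axis) for 44 of the 45 tested complex I genes, one row per gene, colored by role, with bars for the standard error and filled points where the adjusted p was under 0.05. Filled points lie to the left of 0, from -0.60 for Ndufa10 to -0.25 for Ndufs5, and the 4 genes to the right of 0 are open.

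Core subunits here are those encoded in the nucleus, and they all pointed the same way. The subunits encoded by mitochondrial DNA are also core subunits and are given separately further below. All 7 had a negative log2 fold change (48.0% of all tested genes did), with a median of -0.34. At the threshold 5 were lower (background 20.8%) and 2 did not pass. Within each numbered pair of libraries, all 7 core subunits were lower in EpCAM+, against 30.6% of all tested genes. With the block all 7 passed the test (background 24.7% lower).

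Ndufs1 (chr1:63143596-63176833 of GRCm38, minus strand), the largest core subunit and the carrier of several iron-sulfur clusters, stood at 105, 108, 105 and 114 CPM in EpCAM+ replicates 1 to 4 and at 142, 150, 164 and 195 CPM in the EpCAM- replicates. Each EpCAM+ library was below each EpCAM- library, and the EpCAM- values spread more widely. The level fell by 33.6% (log2 fold change -0.59, SE 0.10, adjusted p = 0.00124 by edgeR). Ndufv1 (chr19:4007497-4012806 of GRCm38, minus strand), which binds NADH and its flavin cofactor, was at 220, 241, 212 and 242 CPM in EpCAM+ and at 285, 349, 337 and 376 CPM in EpCAM-. Again the groups did not overlap, and the level fell by 32.1% (log2 fold change -0.56, SE 0.09, adjusted p = 0.00124 by edgeR). Ndufv2, the third subunit of the N module and another iron-sulfur protein, was at 260, 328, 303 and 333 CPM in EpCAM+ and at 324, 421, 360 and 372 CPM in EpCAM-. Here the groups overlapped, as the 2 highest EpCAM+ libraries reached above the lowest EpCAM- library, and Ndufv2 missed the threshold (log2 fold change -0.27, SE 0.10, edgeR adjusted p = 0.0557). It passed without EpCAM- replicate 1 (adjusted p = 0.0260 by edgeR) and with the block (adjusted p = 0.00380).

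In the Q module, Ndufs7, which holds the last cluster before ubiquinone, was at 265, 285, 256 and 286 CPM in EpCAM+ and at 314, 382, 353 and 382 CPM in EpCAM-. Ndufs3, another core subunit of this module, was at 163, 180, 160 and 179 CPM against 199, 219, 196 and 214 CPM. For both genes the fractions were fully separated. The edgeR log2 fold changes were -0.39 (SE 0.08, adjusted p = 0.00401) for Ndufs7 and -0.28 (SE 0.07, adjusted p = 0.0106) for Ndufs3, though Ndufs3 missed the threshold with upper-quartile scaling (edgeR adjusted p = 0.0580). Ndufs8, an iron-sulfur subunit of this module, was at 199, 254, 222 and 235 CPM in EpCAM+ and at 238, 300, 255 and 263 CPM in EpCAM-. EpCAM+ replicate 2 lay above EpCAM- replicate 1, so the groups overlapped, and Ndufs8 did not pass the main test (log2 fold change -0.22, SE 0.10, adjusted p = 0.0913 by edgeR, and 0.00703 with the block).

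The accessory subunits had a smaller share of calls and a smaller median decrease. Of 29 tested, 7 were lower and 22 did not pass, a share of 24.1% against the background of 20.8%, with a median log2 fold change of -0.18. The 22 ran from -0.32 to 0.07 on the log2 scale. With the block 15 of 29 were lower (background 24.7%), while upper-quartile scaling left 2 (background 15.4%) and library totals 3 (background 15.2%), each with a median of -0.09. No test was made of the difference between core and accessory subunits. By position, 2 of 9 in the matrix arm were lower (median -0.12), 2 of 9 in the proximal membrane arm (median -0.22) and 2 of 10 in the distal membrane arm (median -0.18), and the seventh was Ndufab1. With the block these counts were 4, 5 and 5, and with either scaling they were 0, 1 and 1.

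Ndufa10 (chr1:92439010-92473860 of GRCm38, minus strand), an accessory subunit of the proximal membrane arm with the fold of a nucleoside kinase, had the largest decrease of the tested members. It was at 227, 272, 213 and 253 CPM in EpCAM+ and at 324, 382, 359 and 403 CPM in EpCAM-. The highest EpCAM+ value was well under the lowest EpCAM- value, and the level fell by 34.2% (log2 fold change -0.60, SE 0.10, adjusted p = 0.00108 by edgeR). The other lower subunit of that region was Ndufs5 (log2 fold change -0.25, SE 0.08, adjusted p = 0.0271 by edgeR), whose call was lost without EpCAM+ replicates 1, 3 or 4 or EpCAM- replicates 2 or 4 (adjusted p 0.0520 to 0.0649). With the block Ndufs5 passed (edgeR adjusted p = 0.00705).

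In the matrix arm the lower pair was Ndufa9, which lies beside the ubiquinone pocket and binds NADPH, and Ndufa5. Ndufa9 was at 282, 361, 303 and 351 CPM in EpCAM+ and at 349, 432, 411 and 417 CPM in EpCAM-, so that the 2 highest EpCAM+ libraries lay above the lowest EpCAM- library (log2 fold change -0.31, SE 0.10, adjusted p = 0.0308 by edgeR). Its call was lost without EpCAM+ replicates 1 or 3 or EpCAM- replicates 2, 3 or 4 (adjusted p 0.0640 to 0.0856). Ndufa5 (log2 fold change -0.27, SE 0.09, adjusted p = 0.0318 by edgeR) lost its call without EpCAM+ replicates 1 or 3 or EpCAM- replicates 2 or 4 (adjusted p 0.0619 to 0.0705). With the block both genes passed (edgeR adjusted p = 0.00205 for Ndufa9 and 0.00617 for Ndufa5). Ndufs4, whose loss in mice gives a model of Leigh syndrome, sat at the other end of the same arm. It was at 107, 122, 111 and 107 CPM in EpCAM+ and at 101, 131, 97.2 and 96.2 CPM in EpCAM-. The ranges overlapped through EpCAM- replicate 2, and the other 3 EpCAM- libraries were below every EpCAM+ library (log2 fold change 0.07, SE 0.10, adjusted p = 0.583 by edgeR).

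In the distal membrane arm, Ndufb5 was at 101, 136, 110 and 128 CPM in EpCAM+ and at 136, 197, 155 and 159 CPM in EpCAM-, with only a narrow gap between the fractions. Its log2 fold change was -0.45 (SE 0.13, adjusted p = 0.0168 by edgeR), and the call was lost by a small margin without EpCAM+ replicate 3 (adjusted p = 0.0503). Ndufb10 was also lower (log2 fold change -0.27, SE 0.08, adjusted p = 0.0244 by edgeR), but not without EpCAM+ replicates 1 or 4 or EpCAM- replicate 2 (adjusted p 0.0502 to 0.0595). With the block both genes passed (edgeR adjusted p = 0.00056 for Ndufb5 and 0.00328 for Ndufb10). Ndufb6 (log2 fold change -0.32, adjusted p = 0.105 by edgeR) and Ndufb9 (log2 fold change -0.20, adjusted p = 0.174) passed without EpCAM- replicate 1 (adjusted p = 0.0333 and 0.0451). They also passed with the block (edgeR adjusted p = 0.00638 and 0.0143). Ndufab1, the mitochondrial acyl carrier protein, was counted apart from the matrix, proximal and distal groups and also serves fatty acid and iron-sulfur cluster synthesis. It was at 119, 144, 138 and 134 CPM in EpCAM+ and at 151, 199, 160 and 178 CPM in EpCAM-, without overlap (log2 fold change -0.36, SE 0.10, adjusted p = 0.0142 by edgeR).

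Only 4 of the 45 tested members had a positive log2 fold change, all smaller than their standard errors and none past the threshold. They were Ndufs4, Ndufa13 (also known as GRIM-19, a cell-death regulator; 0.07, SE 0.09), Ndufa7 (0.04, SE 0.14) and Ndufb2 (0.02, SE 0.15). Ndufa13 was at 252, 277, 239 and 260 CPM in EpCAM+ and at 242, 288, 230 and 217 CPM in EpCAM-, with the fractions interleaved.

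Of the 8 assembly factors, 4 were lower (background 20.8%) and 4 did not pass, and all 8 log2 fold changes were negative, with a median of -0.32. With the block 6 of 8 were lower (background 24.7%). Ndufaf4 and Ndufaf3 bind each other and work early, on the Q module. Ndufaf4 (chr4:24898083-24905001 of GRCm38, plus strand) was at 52.0, 57.9, 58.1 and 48.8 CPM in EpCAM+ and at 67.7, 85.0, 85.7 and 82.7 CPM in EpCAM-. All 4 EpCAM+ libraries were below the EpCAM- libraries, of which replicate 1 was the lowest (log2 fold change -0.57, SE 0.10, adjusted p = 0.00134 by edgeR). Ndufaf3 was at 53.0, 52.8, 42.0 and 49.2 CPM against 62.3, 63.0, 58.6 and 58.0 CPM, a smaller but also complete separation (log2 fold change -0.30, SE 0.09, adjusted p = 0.0198 by edgeR).

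Ndufaf7, a methyltransferase of the mitochondrial matrix, was at 57.3, 56.4, 48.2 and 55.7 CPM in EpCAM+ and at 65.7, 82.6, 75.1 and 75.8 CPM in EpCAM- (log2 fold change -0.46, SE 0.09, adjusted p = 0.00269 by edgeR). Ndufaf1, part of the assembly complex for the membrane arm with Ecsit and Acad9, was at 63.7, 67.4, 62.9 and 68.3 CPM against 75.0, 89.3, 78.6 and 95.1 CPM (log2 fold change -0.37, SE 0.09, adjusted p = 0.00695 by edgeR). Neither gene overlapped between the fractions. Ndufaf6 (log2 fold change -0.34, adjusted p = 0.0555) and Ndufaf8, a partner of Ndufaf5 (-0.21, adjusted p = 0.0618), missed the edgeR threshold and passed with DESeq2, with the block and without EpCAM- replicate 1 (edgeR adjusted p = 0.00743 and 0.0446). Ndufaf5, which hydroxylates Ndufs7, stood at 20.9 to 23.2 CPM in EpCAM+ and 22.4 to 25.5 CPM in EpCAM- (log2 fold change -0.09, SE 0.09, adjusted p = 0.431 by edgeR). Ndufaf2, a relative of the subunit Ndufa12 that it holds the place of during assembly, stood at 34.3 to 49.8 CPM against 38.4 to 51.2 CPM (log2 fold change -0.05, SE 0.14, adjusted p = 0.796 by edgeR).

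Ndufa4 and Ndufa4l2 carry complex I names, although Ndufa4 is now counted as a subunit of complex IV. Ndufa4 had the largest standard error of the tested members and stood at 284, 409, 384 and 467 CPM in EpCAM+ and 338, 619, 326 and 382 CPM in EpCAM-, and the difference was not detectable beside that spread (log2 fold change -0.11, SE 0.21, adjusted p = 0.704 by edgeR). Ndufa4l2, a hypoxia-induced relative, had 1 and 2 counts in EpCAM- replicates 1 and 2 and 0 in the other 6 libraries, at or under the limit of 3 counts that a count of 0 allows. The median of the tested members without Ndufa4 was -0.23.

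The members also shared a pattern among the replicates of a fraction. EpCAM+ replicate 1 was the lowest EpCAM+ library for 31 of 45 members, against 28.5% of all tested genes, and EpCAM- replicate 2 was the highest EpCAM- library for 37 of 45, against 26.8%. Summed over members, complex I took 0.607, 0.767, 0.692 and 0.714% of counts in the EpCAM+ replicates and 0.727, 0.872, 0.747 and 0.763% in the EpCAM- replicates. In these shares of the raw library totals, the highest EpCAM+ library exceeded 3 of the EpCAM- libraries, so the fractions overlapped. On the TMM scale the sums were 6043 to 7283 CPM in EpCAM+ and 7227 to 9108 CPM in EpCAM-, a narrower overlap. Without Ndufa4 and Ndufa4l2 they were 5758 to 6874 CPM against 6889 to 8488 CPM, with a small gap. Gene by gene, the 4 EpCAM+ libraries were all below the 4 EpCAM- libraries for 18 of 45 members, against 20.0% of all tested genes, and 0 were wholly above, against 20.1%. Without EpCAM+ replicate 1, EpCAM+ replicate 3 or EpCAM- replicate 2, 12 members passed the threshold, with medians of -0.17, -0.22 and -0.15. Without EpCAM- replicate 1, 21 passed. The share of all tested genes called in these fits is not given here. The counts therefore show only how the calls depend on single libraries.

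**Figure D2:**
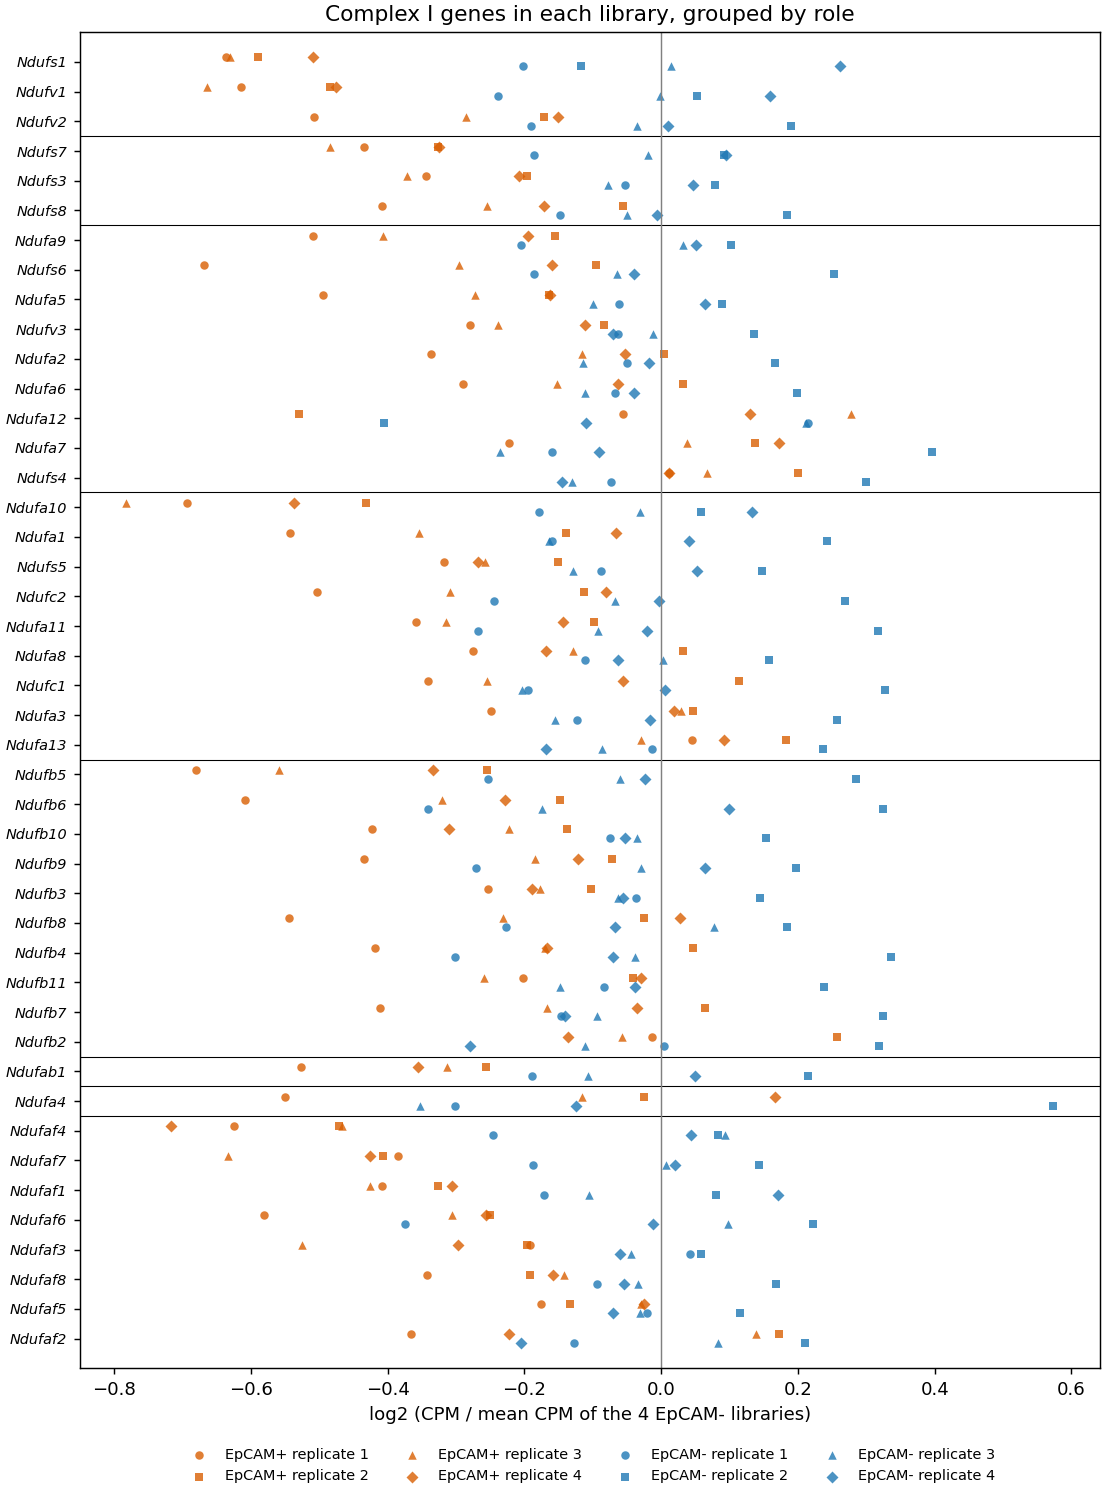
CPM of 44 of the 45 tested members in each library, as log2 of its ratio to the mean of the 4 EpCAM- libraries (horizontal axis), with EpCAM+ in orange, EpCAM- in blue, a marker shape for each replicate number, and lines between roles. EpCAM- replicate 2 (blue squares) is the highest EpCAM- library for 37 of 45 genes and EpCAM+ replicate 1 (orange circles) the lowest EpCAM+ library for 31, while for Ndufs1, Ndufv1 and Ndufa10 the colors do not mix.

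Libraries that share a replicate number deviated together over all genes, so the ratio within each pair was also taken. EpCAM+ was the lower of its pair in all 4 pairs for 33 of 45 members, against 30.6% of all tested genes, and no member was higher in all 4. The median log2 ratio over members was -0.25, -0.28, -0.19 and -0.12 in pairs 1 to 4. For core subunits the 4 medians were -0.29, -0.36, -0.45 and -0.42, for accessory subunits -0.23, -0.26, -0.13 and -0.10, and for assembly factors -0.23, -0.38, -0.36 and -0.24. In pairs 1 and 2 the core and accessory subunits lay close to each other, and in pairs 3 and 4 they lay farther apart.

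**Figure D3:**
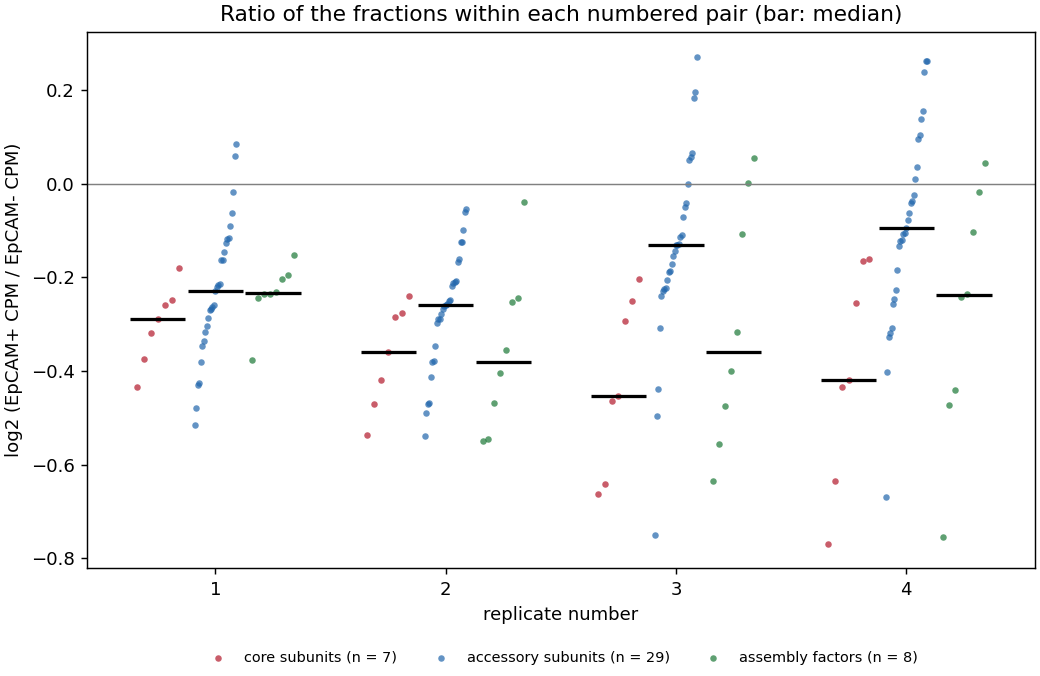
Log2 ratio of EpCAM+ to EpCAM- CPM (vertical axis) within each numbered pair (horizontal axis), with a point for each gene and a bar at the median, for 7 core subunits, 29 accessory subunits and 8 assembly factors. Core subunits lie below 0 in every pair, and accessory subunits spread across 0 in pairs 3 and 4, with medians of -0.13 and -0.10.

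Within the complex, genes with longer coding sequences tended to have the larger decreases. Across the 45 tested members, the log2 fold change and the longest annotated coding length had a Spearman correlation of -0.53, while over 11716 tested protein-coding genes the correlation was 0.13. The points share the same 8 libraries, and genes are not independent replicates. The value was -0.55 with the block, -0.54 with upper-quartile scaling, -0.56 without EpCAM+ replicate 1 and -0.59 without EpCAM- replicate 2. Total exon length gave -0.22, GC content 0.01 and mean CPM -0.10.

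The 15 members with the shortest coding sequence (387 bases or less) included 2 lower genes and had -0.18 as their median log2 fold change. The 15 with the longest (567 bases or more) included 10 lower genes, with a median of -0.34. Over all tested genes 20.8% were lower. With the block the counts of lower genes were 8 and 14 (background 24.7%). The short members also varied more, with a median SD over the EpCAM- libraries of 13.8% of the mean against 9.30% for the long members. Ndufs1 has the longest coding sequence, 2181 bases, and Ndufv1 and Ndufa10 have 1392 and 1065 bases. Core subunits are among the longer members, so role and length were not separated here.

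**Figure D4:**
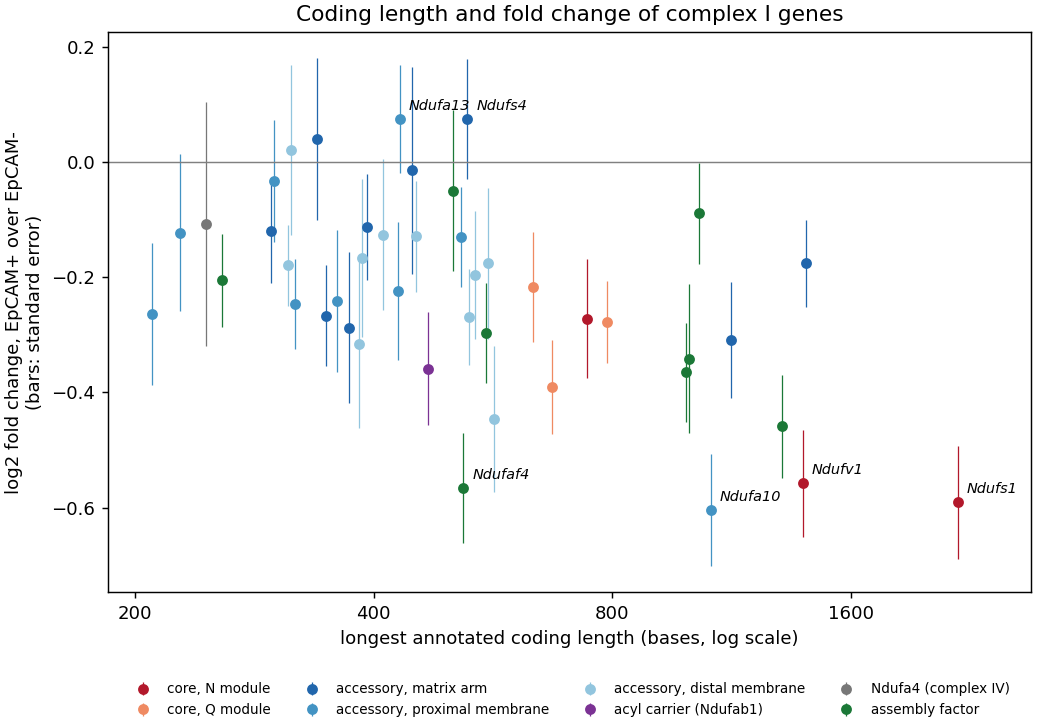
Coding length in bases (horizontal axis, log scale) against the log2 fold change of EpCAM+ over EpCAM- (vertical axis) for 44 of the 45 tested members, colored by role, with bars for the standard error. Values drop toward the right, with medians over all tested members of -0.18 in the 15 shortest and -0.34 in the 15 longest, and with Ndufs1 at the far right.

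Levels were compared between genes per length, in the FPKM that the authors deposited. In EpCAM- cells the mean over members ran from 11.8 ± 2.14 (SD, n = 4) for Ndufb2 to 635 ± 202 for Ndufa4, leaving out Ndufa4l2. Next in order came Ndufs7 at 509 ± 33.1 and Ndufa1, a small subunit of the proximal membrane arm, at 425 ± 51.9. Ndufa10 followed at 405 ± 27.0 and Ndufb10 at 389 ± 26.3. Ndufa4 and Ndufs7 differed by less than the SD of Ndufa4, and Ndufa1, Ndufa10 and Ndufb10 differed by less than the SD of Ndufa1. In EpCAM+, Ndufa10 was at 282 ± 32.9. The assembly factors were at the low end, from 23.9 ± 1.42 for Ndufaf5 to 126 ± 9.38 for Ndufaf8. Among core subunits Ndufs1 was lowest, at 122 ± 15.4 FPKM in EpCAM- and 86.0 ± 3.24 in EpCAM+. FPKM are scaled to the total of each library, and the order depends on the gene length used, since ranking by CPM per kilobase of the deposited gene length gave a Spearman correlation of 0.816 with the FPKM ranks over the 46 members.

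**Figure D5:**
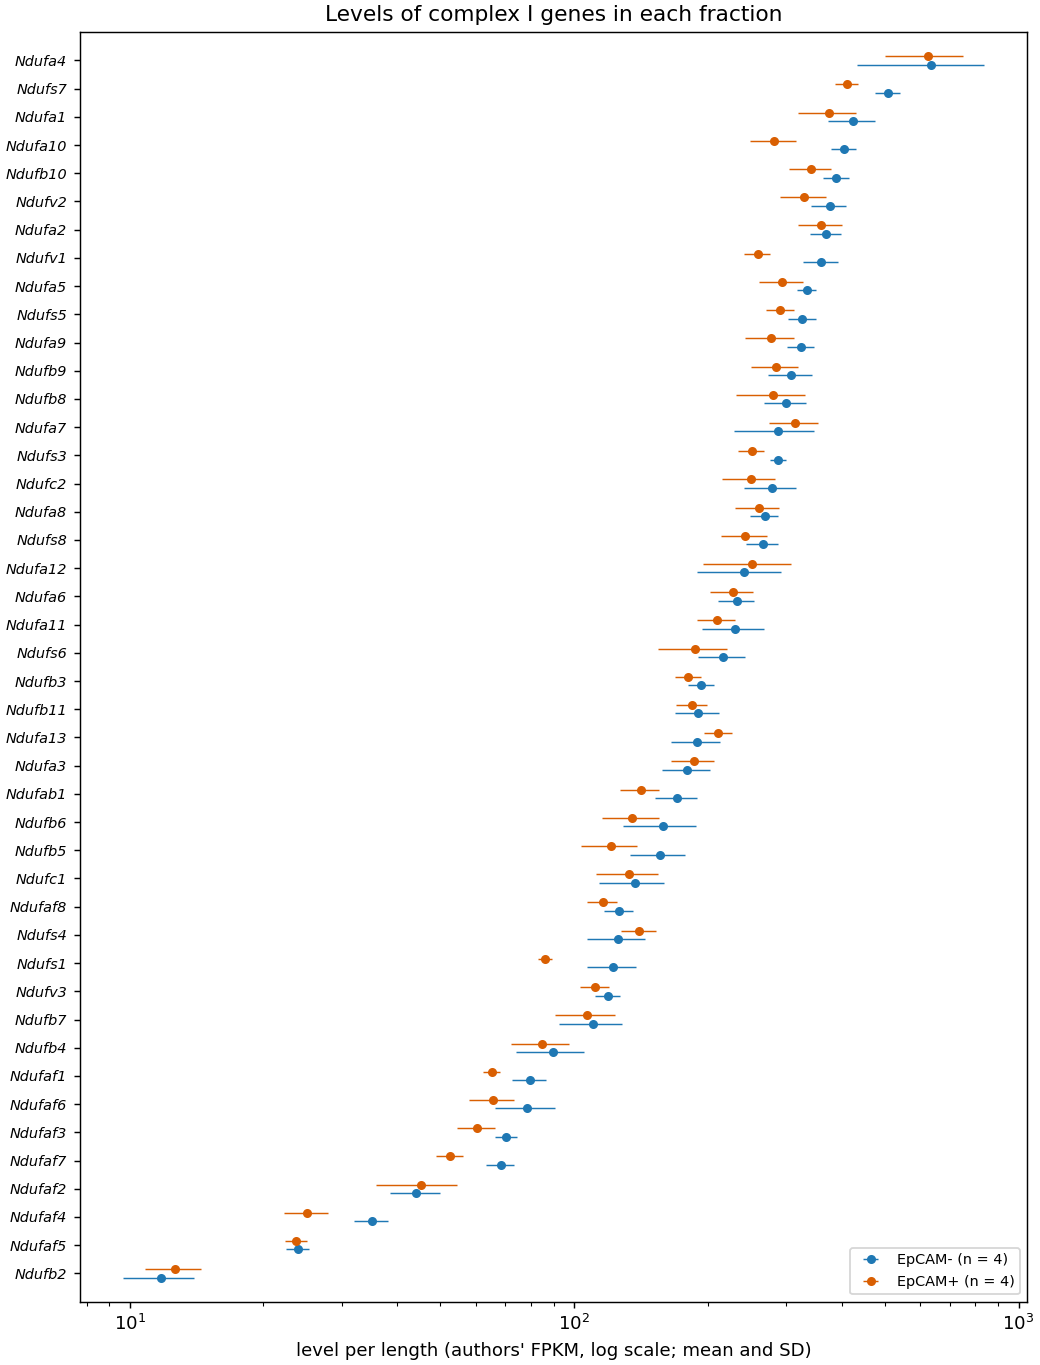
Mean level per length (the FPKM deposited by the authors, log scale, with SD over 4 libraries) of 44 of the 45 tested members in EpCAM- (blue) and EpCAM+ (orange), ordered by the EpCAM- mean. Assembly factors gather at the low end, at 126 FPKM or less in EpCAM-, and the colors stand apart for Ndufs7, Ndufa10, Ndufv1 and Ndufs1.

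Some counts may be shared with other genes. Near-identical processed pseudogenes (95% identity or more over at least 200 bases) were in the table for 9 members, and exons of another gene overlapped those of 19 members, where the library kit is not stated to keep strand. Ndufa12 had 2200 to 4675 counts beside 420 to 1389 for its copy Gm15920, which is 99.5% identical over 402 bases, and its log2 fold change was -0.01 (SE 0.18). Ndufab1 had 1825 to 2694 counts beside 243 to 436 for Gm4459, and Ndufs3 had 2493 to 3194 beside 215 to 274 for Gm12251. Overlaps reached 65.6% of the exon length of Ndufaf2 (with B230220B15Rik, at 0 counts), 39.0% of Ndufb6 (with Smim27) and 30.0% of Ndufa13 (with Tssk6). The others with a copy or overlap that have not been described had log2 fold changes of -0.29 for Ndufs6, -0.22 for Ndufa11, -0.18 for Ndufb3, -0.18 for Ndufb8, -0.17 for Ndufb4, -0.13 for Ndufb11 and -0.12 for Ndufa2, and none passed the main test. With the block Ndufs6, Ndufa11 and Ndufb3 passed (edgeR adjusted p = 0.00807, 0.0288 and 0.0239). Ndufb3 also passed with DESeq2 (adjusted p = 0.0381). Leaving out all such members, 8 of 23 were lower (15 with the block) with a median of -0.24. Among the tested members with a copy or overlap 8 of 22 were lower, with a median of -0.21. Of these 22, 13 were lower with the block, 3 with upper quartiles and 5 with library totals. Over all tested genes 20.8% were lower, 24.7% with the block, 15.4% with upper quartiles and 15.2% with library totals. Ndufb1-ps, which is named after the subunit Ndufb1 but is annotated as a noncoding RNA and so is no member, had a log2 fold change of -0.40 (SE 0.13, adjusted p = 0.0310 by edgeR).

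Assembly factors with other names went both ways. Of 12 tested, 4 were lower (background 20.8%) and 1 higher (background 21.8%), with a median of -0.16. With library totals 2 were lower (background 15.2%). The partners of Ndufaf1 were both lower, Ecsit by a log2 fold change of -0.45 (SE 0.09, adjusted p = 0.00300) and Acad9 by -0.34 (SE 0.08, adjusted p = 0.00557), as was Foxred1 (-0.30, SE 0.07, adjusted p = 0.00747, all by edgeR). The gene that was higher was Sfxn4 (0.60, SE 0.21, edgeR adjusted p = 0.0390), a sideroflexin, singled out after its value was seen. Of the subunits encoded by mitochondrial DNA, 6 of 7 were tested, 0 were lower or higher (at an unadjusted p under 0.05, 1 lower and 0 higher, and by DESeq2 1 lower and 0 higher), and the median was -0.11. mt-Nd1 had the smallest adjusted p of these, at 647 ± 124 CPM in EpCAM+ and 821 ± 134 CPM in EpCAM- (SD, n = 4), with a log2 fold change of -0.34 (adjusted p = 0.0944 by edgeR). With the block it passed the test (edgeR adjusted p = 0.00226) and was the 1 gene of this list that did, lower in EpCAM+ in all 4 pairs.

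Among nuclear subunits of the other complexes, those that passed the test were lower too. The background was 20.8% lower and 21.8% higher. Of 4 tested for complex II, 3 were lower (median -0.39), of 9 for complex III 6 (median -0.46), of 11 for complex IV 4 (median -0.31) and of 16 for complex V 8 (median -0.29), and 0 were higher by edgeR (by unadjusted p under 0.05, 0, and by DESeq2, 0). With the block 8 of 11 were lower for complex IV, and with upper-quartile scaling 5 of 16 for complex V. In all, 21 of 40 were lower with a median of -0.32. The tested complex I subunits without Ndufa4 had 12 of 36 lower and a median of -0.22. With Ndufa4 and the assembly factors, complex I had 16 of 45 and -0.22. The difference from the other complexes was not tested. Cyc1, the cytochrome c1 of complex III, was at 389 ± 30.6 CPM against 629 ± 62.4 CPM (log2 fold change -0.69, adjusted p = 0.00049), and Atp5g1, which encodes the c subunit of ATP synthase, had a log2 fold change of -0.89 (adjusted p = 0.000877, both by edgeR).

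Among genes for the cofactors of complex I, most of those that passed the test were lower. Over all tested genes 20.8% were lower and 21.8% higher. Of 13 tested genes of iron-sulfur cluster assembly, 9 were lower and 1 higher, with a median of -0.50. Glrx5, a glutaredoxin that hands on clusters, was at 164 ± 9.15 CPM in EpCAM+ and 369 ± 64.9 CPM in EpCAM- (log2 fold change -1.17, adjusted p = 0.000179 by edgeR), beside the higher erythroid markers in EpCAM-, whose part was not tested. Hspa9 (log2 fold change -0.69), the chaperone of the cluster scaffold, was also lower. Of 13 genes of ubiquinone synthesis, 7 were lower and 1 higher, the latter being Coq8a, a kinase-like protein of that pathway (0.69, SE 0.10, adjusted p = 0.000711 by edgeR). Coq9 (-0.58) and Pdss1 (-0.67) were lower. Of 10 regulators of respiratory genes, 2 were higher and 2 lower (4 with the block, 0 with upper quartiles and 0 with library totals). The main counts of this list were near the shares over all tested genes, so they do not set the list apart. Ppargc1a, the coactivator PGC-1alpha, rose by 2.29 on the log2 scale from a low level, 0.540 ± 0.305 to 2.69 ± 0.676 CPM (adjusted p = 0.00145 by edgeR). Of the subunits of GABP, Gabpb1 rose by 0.33 on the log2 scale (adjusted p = 0.00457 by edgeR), and Gabpa fell by 0.31 (adjusted p = 0.0397 by edgeR). Myc fell by 0.40 (adjusted p = 0.0265 by edgeR). The calls for Gabpa and Myc were lost under both other scalings.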

How the data were processed

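Bulk RNA was sequenced from 8 libraries. Reads were aligned with STAR 2.6.1d to GRCm38.p6 and the authors deposited featureCounts 1.5.0-p3 counts per gene, FPKM and gene length; strand setting and annotation release are not given in the sources used here. The authors' DESeq2 1.20.0 fold changes and p-values were not used. The SMART-Seq v4 kit amplifies full-length cDNA from low input. Counts were filtered with filterByExpr and tested with edgeR 4.0.16 (TMM, glmQLFit, glmQLFTest, R 4.3.3), two-sided, with Benjamini-Hochberg adjustment over 13560 genes and a threshold of 0.05; standard errors came from the F statistic. The procedure was checked on simulated counts. Alternatives were DESeq2 1.42.0, limma 3.58.1 (prior count 2), other scalings and filters, the replicate block and each library left out. Same-numbered libraries deviated together (correlations over genes 0.205 to 0.356, against -0.216 to 0.0396 for other pairs). The numbers were therefore taken as pairs in the block fit and in the ratios within pairs, while the main test ignored them. What same-numbered libraries share is not stated. No libraries were duplicates. Coding lengths were from GENCODE M21 and copies from blastn 2.17.0.

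Members, lists and roles were chosen with earlier results of these data known. 1 core subunit enters the counts and medians but is not reported here by itself, and of the plots only that of ratios within pairs holds its point, unnamed. With that exception, the genes named were every core subunit, every Ndufaf gene, Ndufa4 and Ndufa4l2, any member higher at the threshold, the 10 lower members with the smallest adjusted p and the 5 with the largest decrease, the extremes of each accessory region, members with a copy or overlap, and, for other pathway lists, genes among the 3 smallest adjusted p, not all of which are printed. Ndufa5, Ndufa7, Ndufb10 and further genes of counts of 5 or fewer were named after their values were seen.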

Additional observations from a re-analysis of the deposited data

Results flagged for a closer look

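In 5 of 76 groups of 4 libraries, the highest or lowest library stood apart by Dixon's criterion for 4 values, and chance flags about 1 in 20 groups. The groups were 1 per fraction for each tested gene under the naming rule and for Ndufa5, Ndufa7 and Ndufb10. Those last genes were named after their values were seen. Ndufa3 was lowest in EpCAM+ replicate 1, at 67.5 CPM against 81.3 to 82.8 CPM in the other EpCAM+ libraries. Ndufaf4 was lowest in EpCAM- replicate 1, at 67.7 CPM against 82.7 to 85.7 CPM. EpCAM- replicate 2 was highest for Ndufb10 (267 CPM against 228 to 234), for Ndufb3 (168 CPM against 146 to 148) and for Ndufs4 (131 CPM against 96.2 to 101.1). Without EpCAM- replicate 2, the call for Ndufb10 was lost (adjusted p = 0.0502 by edgeR) and that for Ndufaf4 was kept in each fit with 1 library left out.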

How the results depend on the processing

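The median log2 fold change of the tested members was negative, and 0 members were higher, under every filter, scaling, tool, block and left-out library that was run. With the replicate block, which follows the pairing, 28 members and 22 subunits were lower, and 9 named genes passed that had not. Upper-quartile scaling left 9 members and 6 subunits lower with a median log2 fold change of -0.14, and library totals gave a median of -0.14. Leaving out 1 library gave 12 to 21 members, 8 to 15 subunits, 5 to 6 core subunits and 4 to 6 assembly factors lower, with medians from -0.28 to -0.15. The share over all genes in these fits is not given here. Small fold changes of genes that did not pass turned sign. Ndufa12 was at 0.010 with at least 10 counts in every library, 0.063 with library totals and 0.072 with upper quartiles, Ndufa3 at 0.054 and 0.053, and Ndufaf2 at 0.039 and 0.037, in the same order. With 1 library left out, they ranged from -0.14 to 0.12 for Ndufa12, -0.088 to 0.055 for Ndufa3, -0.22 to 0.14 for Ndufa4, -0.037 to 0.19 for Ndufa7, -0.13 to 0.036 for Ndufaf2 and -0.069 to 0.13 for Ndufb2. The cause was not tested. Limma, DESeq2 size factors and the protein-coding table changed no call of a named gene. Tested members had 170 to 8372 counts per library, and the fewest, in Ndufb2, carry the widest counting error.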
